A study of Hippoglossus hippoglossus with 15 samples.

Results

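The transcripts with lymphocyte-related names il7 (probe HH_Contig1753), pd-1l (HH_Contig2081) and ms4a8a (HH_Contig1463) were followed through Atlantic halibut embryos. The probes were chosen by name, through the tables that pair these names with array probes, and are 3 of the 10180 probe names on the array. Each is represented by 1 probe name, carried by 4 spots (pd-1l, ms4a8a) or 5 spots (il7) per array, which are called copies. Whether the copies share 1 sequence was not checked. In those tables pd-1l stood among the transcripts up-regulated at the 8-cell stage and among those that differed between egg qualities, il7 among those up-regulated at the germ ring stage, and ms4a8a among those that differed between qualities. The tables were drawn from the same arrays, so a call in one of these comparisons is not independent evidence of its direction.

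Interleukin 7 is a cytokine that, in mammals, is secreted by stromal and epithelial cells and is required for the development and survival of lymphocytes. Programmed cell death 1 ligand 1 is a membrane ligand that dampens activated T cells in mammals through the receptor PD-1. The MS4A family holds proteins that cross the membrane several times, the best known of which is CD20 of mammalian B cells. The 8-cell embryo consists of cleavage-stage blastomeres and relies on transcripts laid down by the mother, whereas lymphoid tissue forms much later in fish development.

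Total RNA of whole embryos was hybridized in 1 colour (Cy3) to 15 custom Agilent arrays, 3 per group. High quality embryos, from egg batches with high fertilization and hatching success, were taken 8 hours post fertilization (hpf) with 8 cells (8CS), at 82 hpf with a germ ring (GR), at 142 hpf with 10 somites (10SS) and at 340 hpf after hatching (HT). Low quality embryos, from batches with low fertilization and hatching success, were at 8CS (8 hpf). Sperm pooled from a few males was used for all fertilizations, which were done in vitro, and the labels name no transgene or treatment. The methods add antibiotics to the seawater in which eggs of the quality comparison were kept. The replicates are described as separate batches of eggs. The embryos of both comparisons come from 1 farm according to the labels but from different sites according to the methods, and the stage contrasts and the quality contrast share their 3 high quality 8CS arrays. In RNA of whole embryos, fewer cells that express a transcript and less RNA per cell cannot be told apart.

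Probe sequences were not used here. The oligonucleotides that identify 2 of the transcripts at the sequence level are the quantitative PCR primers designed by the study, which are shown because they name the stretch of each transcript that was amplified as a second assay. They are written 5′ to 3′, with no letters marked.
pd-1l forward primer: agaaggacgactcagact
pd-1l reverse primer: aacagtggcagtgacatt
ms4a8a forward primer: gccataacagccatcgta
ms4a8a reverse primer: ttaggagtatcagagtcagagt
The primers were 18 bases long except the ms4a8a reverse primer of 22 bases, and their GC content was 40.9% to 50%. The PCR measurements themselves were not analysed here.

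Values are log2 of the processed signal (the intensity of a spot after background subtraction) minus the 75th percentile of the array, averaged over the copies of a probe and called the level. A level compares arrays for 1 probe and is not set against the level of another probe. A probe was taken as well above background on an array if the extraction software marked over 50% of the copies so. A difference was called at a Benjamini-Hochberg adjusted p under 0.05 from limma and at least 2-fold. The share of all probes well above background was 69.3% to 90.1% per array, and no probe spot was saturated. Probes with stage-typical names followed the labels. These names were paired with probes in lists drawn from the same arrays, so this is not an independent check. The oocyte linker histone h1m (HH_Contig1140) fell from a level of 6.55 ± 0.24 in high quality 8CS to -6.29 ± 1.11 at HT (SD, n = 3), and hatching enzyme (HH_90604015) was well above background on the 3 HT arrays and on no other array. One array stood apart. 10SS replicate 3 correlated at 0.947 with the mean of the GR arrays over probes and at 0.865 with the mean of the other 10SS arrays, which correlated at 0.991 with each other. Results at 10SS are therefore also given without it.

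The il7 transcript, which encodes the cytokine, had its highest level at GR. Its unscaled signal, as the geometric mean of the copies, was 71.5, 114 and 64.4 on the 3 GR arrays. In high quality 8CS it was 17.2, 16.1 and 24.7, and in low quality 8CS 19.04, 14.7 and 13.2. The GR signals did not overlap with those of any other group. The 8CS signals, 13.2 to 24.7, are what remained after background subtraction. The local background around the il7 spots of these arrays was 14.5 to 17.5. At 10SS the signal was 9.63, 21.9 and 36.4, and at HT 31.6, 24.8 and 30.5. The highest 10SS signal was on replicate 3, the array that resembled GR. Detection well above background held for all 3 arrays of both 8CS groups and of GR, for 2 of the 3 10SS arrays and for 1 of the 3 HT arrays.

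**Figure D1:**
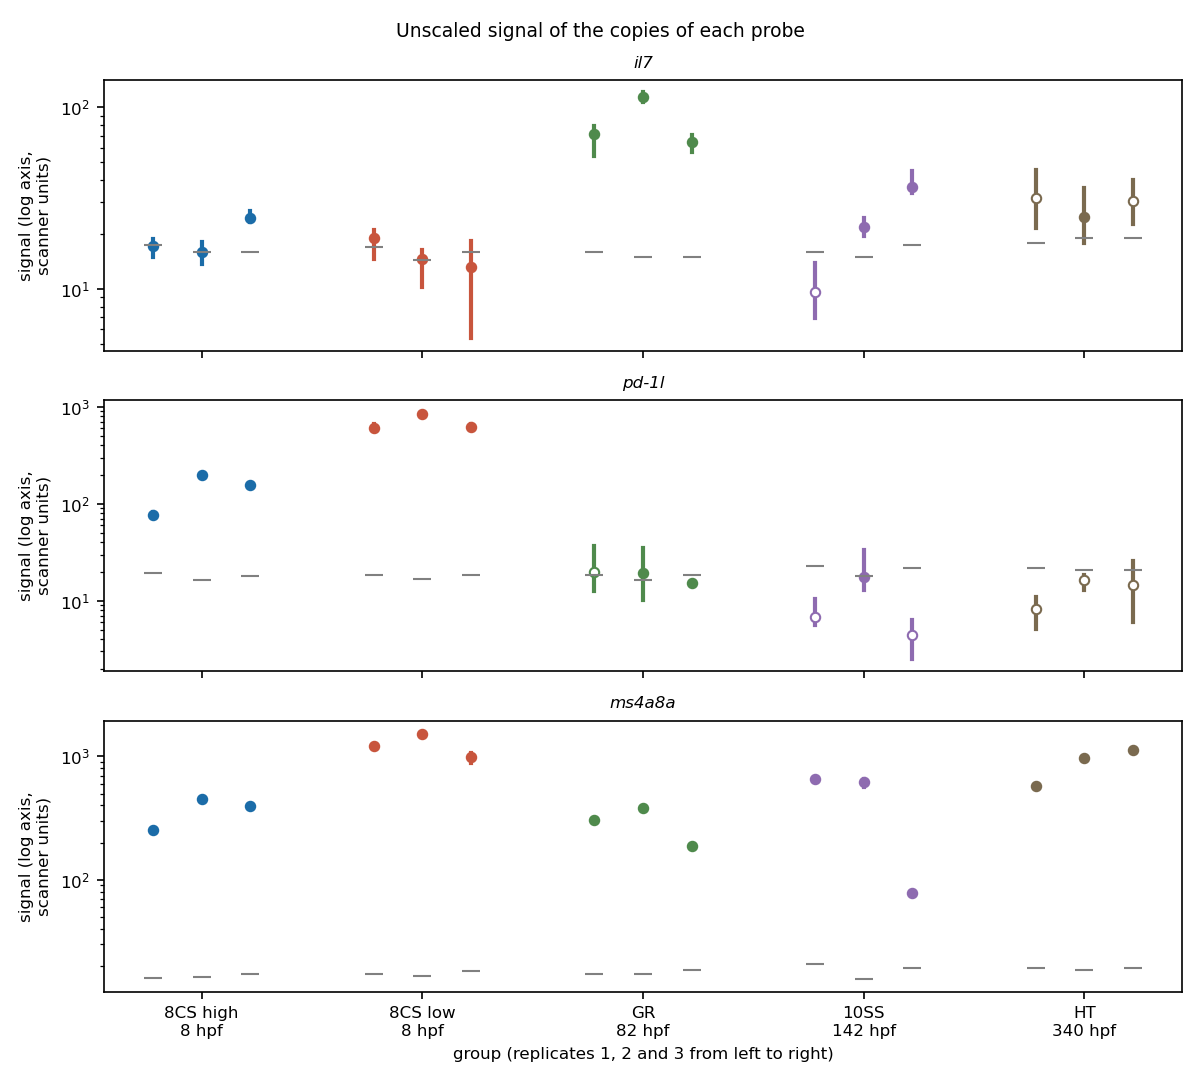
Unscaled processed signal (log axis, scanner units) of the copies of each probe on each array, by group, with replicates 1, 2 and 3 from left to right. Vertical lines run from the lowest to the highest copy used, points are geometric means (open where the probe was not well above background), and grey dashes are the median local background of the copies. The il7 signals at GR, 64.4 to 114, lie above those of every other group, and the pd-1l signals of low quality 8CS, 599 to 849, lie above those of high quality 8CS, 77.2 to 197.

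On the scaled level il7 was at -3.43, -2.91 and -3.00 at GR, at -5.38, -6.16 and -5.09 in high quality 8CS, at -7.82, -6.44 and -5.50 at 10SS and at -6.47, -6.79 and -6.61 at HT. All 3 GR arrays were above all 9 arrays of the other stages. The same lack of overlap was seen for 63.4% of all probes between GR and high quality 8CS, for 48% between GR and 10SS and for 80.5% between GR and HT. The level was higher at GR than in high quality 8CS by 2.43 (SE 0.50, 95% interval 1.33 to 3.53, adjusted p = 0.002 from limma), in a contrast in which 42.2% of all probes tested were called and 21.6% were called higher at GR. The fall from GR was 3.47 to 10SS (adjusted p = 0.000497, at least 8.22-fold) and 3.51 to HT (adjusted p = 0.000182, at least 11.4-fold), where 24.1% and 31.4% of all probes were called lower. A fold is given as "at least" where some array of the dimmer group was not well above background, with the signal there replaced by the lowest signal of any probe well above background if that was higher. The spread between arrays is not part of such a bound. The lowest signal used is not a detection limit, since some probes above it were not well above background. Arrays of the brighter group were used as measured, also where not well above background, so the bound is approximate. Nothing was replaced for the 11.4-fold here, so that it is the fold of the means (95% interval of HT minus GR -4.61 to -2.41). The same holds below for 5.92-fold and 22.3-fold (pd-1l) and for 4.23-fold (rnf213). Normexp is a background correction that subtracts the local background, models the remainder as background plus signal and adds an offset (50 here). With normexp the rise to GR was 0.36 (adjusted p = 0.926 from limma) and the fall to 10SS was 2.05 (adjusted p = 0.0656). Normexp after replacement of outlier local backgrounds kept both calls, with 1.09 for GR minus high quality 8CS and -1.99 for 10SS minus GR. The fall to HT was 0.88 (adjusted p = 0.084) with each array scaled to its spike-in RNA.

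The il7 levels of the other stages were not separated by the test without a slide term. The difference of 10SS from high quality 8CS was -1.04 (95% interval -2.14 to 0.058, adjusted p = 0.0903) and that of HT was -1.08 (95% interval -2.18 to 0.019, adjusted p = 0.0715). Both moved with the slide, the array that stood apart and the scaling. With slide as a fixed or a random block (correlation within slides 0.84), 10SS differed from high quality 8CS by -1.86 (adjusted p = 0.0146) or -1.53 (0.0142) and HT by -2.99 (0.00338) or -2.45 (0.00217), and HT minus 10SS was -1.12 (0.0224) with the fixed block. All 3 HT arrays lay on slide 5, where the only other array was 10SS replicate 3. Every HT difference with the fixed block therefore rests on that array, which resembled GR. Without it and with no slide term, HT minus 10SS was 0.50 (adjusted p = 0.382 from limma). Without 10SS replicate 3 the 10SS difference was -1.58 (adjusted p = 0.00512) and the HT difference, at the same -1.08, had an adjusted p of 0.0194. With quantile normalization they were -1.45 (adjusted p = 0.0152) and -2.12 (adjusted p = 0.00134). With spike-in scaling the HT difference turned to 1.27 (adjusted p = 0.0201) and the 10SS difference to 0.50, and under this scaling the median of all probes lay 2.25 higher at HT than in high quality 8CS. The 75th percentile signal, to which the level is relative, was 716 to 1151 on the high quality 8CS arrays and 2812 to 2976 on 2 of the HT arrays, with the remaining one at 2749.97.

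Between qualities il7 did not pass the test. The levels in low quality 8CS were -6.02, -6.62 and -6.18, of which 1 lay within the range of the high quality arrays. The difference of low from high quality was -0.73 (SE 0.32, 95% interval -1.50 to 0.046, adjusted p = 0.176), in a contrast in which 1.17% of all probes were called. Within slide 1 it was -0.25 and within slide 4 -1.09. It was 0.022 with spike-in scaling and 0.084 in the table of log2 values that the authors deposited, so that its sign was not settled. In the order of the 5 groups, GR stood above high quality 8CS, followed by low quality 8CS, 10SS and HT. GR differed from its neighbour by more than the spread, and the other neighbours in this order did not (adjusted p = 0.176, 0.565 and 0.965). The 95% interval was -0.69 to 1.32 for low quality 8CS minus 10SS and -1.14 to 1.06 for HT minus 10SS, a contrast in which 14.5% of all probes were called. The difference of low quality 8CS from 10SS moved with the scaling. It was called with quantile normalization (1.32, adjusted p = 0.0128 from limma) and in the deposited table (1.31, adjusted p = 0.00926). With spike-in scaling it was -0.48 (adjusted p = 0.32). Low quality 8CS was 8.93-fold lower than GR (adjusted p = 7.22e-05), where 27.4% of all probes were called lower. With normexp this difference was -1.07 (adjusted p = 0.438), or -1.53 (adjusted p = 5.65e-05) after replacement of outlier local backgrounds. Low quality 8CS differed from HT by 0.35 (95% interval -0.65 to 1.36, adjusted p = 0.505), which was 2.001 with quantile normalization (adjusted p = 0.000667), 2.12 with slide as a fixed block (adjusted p = 0.0043) and -1.25 with spike-in scaling (adjusted p = 0.0146).

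**Figure D2:**
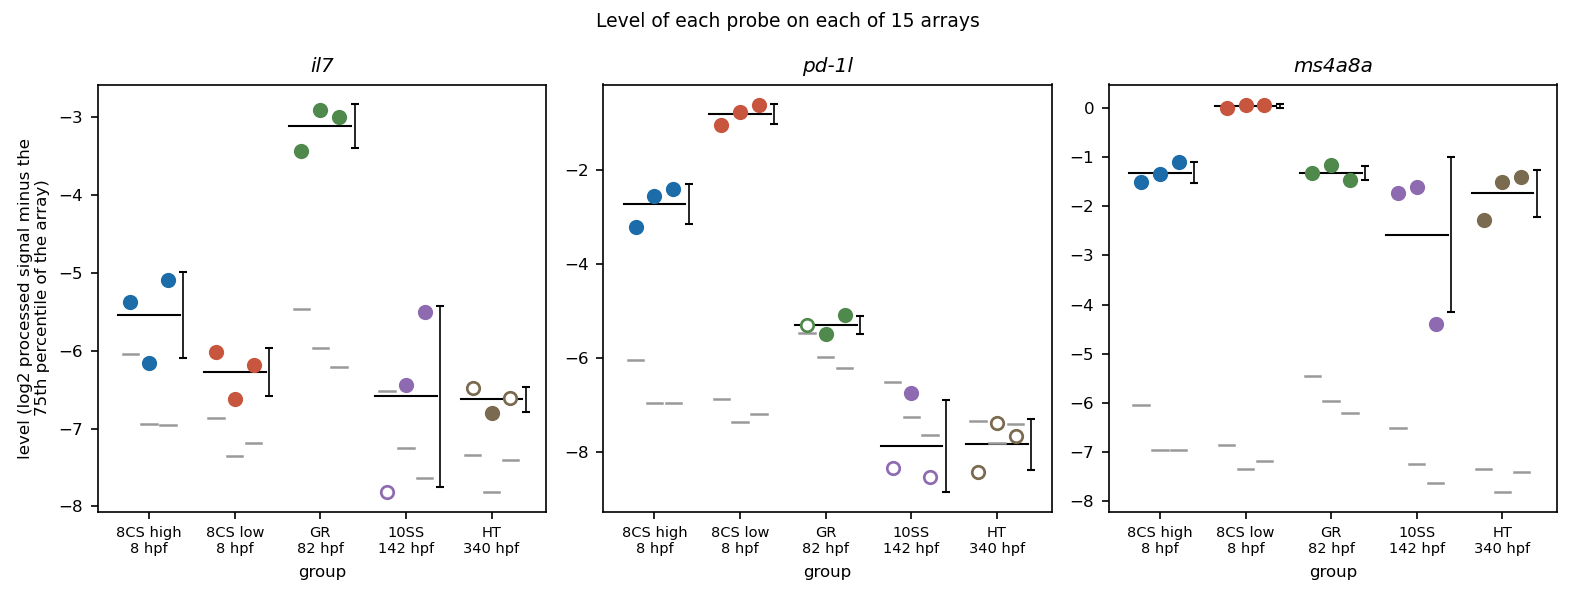
Level of il7, pd-1l and ms4a8a (log2 processed signal minus the 75th percentile of the array) on each of the 15 arrays, by group. Points are arrays (replicates 1 to 3 from left to right, open where not well above background), black lines are group means with the SD beside them (n = 3), and grey dashes mark the lowest level among probes well above background on that array. For il7 the GR mean of -3.11 is the highest, for pd-1l the low quality 8CS mean of -0.81, and for ms4a8a 10SS replicate 3, at -4.40, lies apart from the other 14 arrays.

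The pd-1l transcript, which encodes the checkpoint ligand, had its highest signals at 8CS, and among these in low quality embryos. Its unscaled signal was 77.2, 197 and 158 on the high quality 8CS arrays and 599, 849 and 617 on the low quality ones, and the copies of 1 array differed little (SD 0.01 to 0.10 on the log2 scale in both groups). At GR the signal left after background subtraction was 19.6, 19.1 and 15.1, where the local background around these spots was 16.5 to 18.5. The highest signal in high quality 8CS was below the lowest in low quality 8CS. At 10SS it was 6.73, 17.7 and 4.47 and at HT 8.15, 16.4 and 14.7. It was well above background on all 6 8CS arrays, on 2 of the 3 GR arrays, on 1 of the 3 10SS arrays and on 0 of the 3 HT arrays, so that no difference between 10SS and HT is given.

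The scaled levels of pd-1l in high quality 8CS were -3.21, -2.55 and -2.42, against -5.30, -5.48 and -5.09 at GR. The 8CS arrays were above all arrays of the 3 later stages, a lack of overlap that 60.8% of all probes had between high quality 8CS and 10SS and 84.9% between high quality 8CS and HT. The level was lower at GR than in high quality 8CS by 2.57 (SE 0.46, adjusted p = 0.000846 from limma, at least 5.92-fold), where 20.7% of all probes were called lower, and the 1 slide that held both groups gave a difference of -2.67. With normexp the difference was -1.09 (adjusted p = 0.178). Normexp after replacement of outlier local backgrounds kept the call, with a difference of -1.01. It was lower again at 10SS than at GR, at -8.33, -6.74 and -8.53 (difference -2.58, adjusted p = 0.00147, at least 3.19-fold), and at -2.25 (adjusted p = 0.00143) this held without 10SS replicate 3. With spike-in scaling this second difference was -0.76 (adjusted p = 0.226), and HT then lay 0.094 above GR, where it had been lower by 2.53 (adjusted p = 0.000748, at least 4.24-fold). With slide as a fixed block HT minus GR was -1.44 (adjusted p = 0.107). The differences of 10SS and HT from high quality 8CS, at least 18.9-fold and 25.1-fold lower, passed the test under all 27 alternatives tried, with values between -5.71 and -2.55 for 10SS and between -5.41 and -2.75 for HT. Of all probes, 28.7% and 32.1% were called lower in these contrasts.

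The quality comparison asked which maternal transcripts differ between embryos of good and poor developmental prospect. The pd-1l levels in low quality 8CS were -1.04, -0.77 and -0.63, and the groups did not overlap, as was the case for 38.1% of all probes tested. The mean was 3.77-fold higher in low quality embryos, a difference of 1.91 (SE 0.26, 95% interval 1.29 to 2.54, adjusted p = 0.0342 from limma). Of all 8737 probes tested, 14 were called higher in low quality embryos (0.16%) and 88 lower (1.01%), and pd-1l and ms4a8a were among the 14. With quantile normalization 34 were called higher and 51 lower. With spike-in scaling 2103 were called higher and 207 lower, the median of all probes was 0.69 higher in low quality embryos, and the pd-1l difference was 2.66. Within slide 1 the pd-1l difference was 1.84 (1 low against 2 high quality arrays) and within slide 4 it was 1.79 (1 against 1). The size of the difference was kept when arrays were left out, between 1.67 and 2.07, but it no longer passed the test without high quality replicate 1 (adjusted p = 0.0861) or 2 (0.0752) or low quality replicate 1 (0.15), 2 (0.114) or 3 (0.0699). It was also not called with slide as a fixed block (1.82, adjusted p = 0.104) and with normexp background correction (1.07, adjusted p = 0.858). Normexp after replacement of outlier local backgrounds kept the call (1.51, adjusted p = 0.0113). The adjusted p over all 21 alternatives ranged from 0.00417 to 0.858.

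Placed among the stages in a fit of all 15 arrays, low quality 8CS had the highest pd-1l level, followed by high quality 8CS and GR, with 10SS and HT lowest. The steps from low to high quality 8CS and from there to GR each passed the test in the fit it belongs to, and 10SS and HT, mostly not well above background, have no order. Low quality 8CS stood at least 22.3-fold above GR (difference 4.48, SE 0.42, adjusted p = 1.46e-06), at least 71.1-fold above 10SS and at least 94.5-fold above HT, where 21.2%, 28.5% and 31.9% of all probes were called higher. These 3 differences passed under all 29 alternatives tried, with lowest values of 2.16, 3.93 and 4.44.

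**Figure D3:**
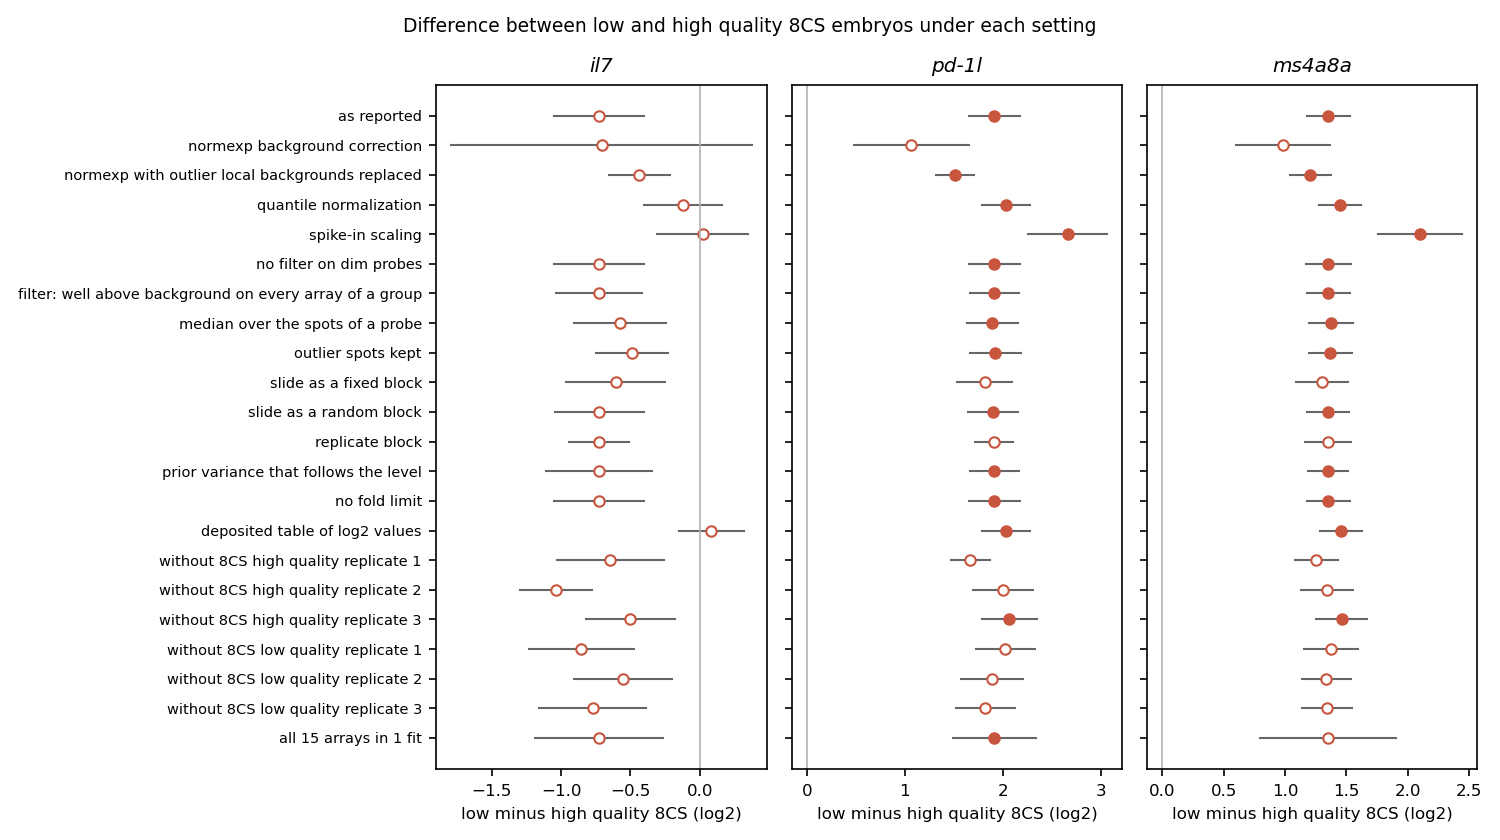
Difference of low from high quality 8CS embryos (log2) for il7, pd-1l and ms4a8a under each setting. Points are differences with lines of 1 SE, filled where called (adjusted p under 0.05 and at least 2-fold). For pd-1l and ms4a8a every point lies above 0, from 1.07 to 2.66 and from 0.98 to 2.10, while for il7 the points run from -1.04 to 0.084 and none is filled.

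The ms4a8a transcript, which encodes the membrane protein, was the only one of the 3 that was well above background on all 15 arrays. Its unscaled signal was 251, 455 and 393 in high quality 8CS and 1222, 1509.8 and 992 in low quality 8CS. At GR it was 307, 379.8 and 187, at 10SS 657, 617 and 78.4, and at HT 577, 962 and 1121. The low value at 10SS was that of replicate 3, and without it the 10SS signals lay above those of GR. The copies of an array differed by an SD of 0.016 to 0.11 on the log2 scale.

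On the scaled level the stages differed little for ms4a8a. The levels were -1.51, -1.34 and -1.10 in high quality 8CS, -1.33, -1.17 and -1.46 at GR, -1.73, -1.62 and -4.40 at 10SS and -2.28, -1.51 and -1.41 at HT. High quality 8CS and GR overlapped and had nearly equal means, -1.32 ± 0.21 and -1.32 ± 0.15 (SD, n = 3), with a difference of -0.0045 (95% interval -1.35 to 1.35, adjusted p = 0.995). The spread in this fit is pooled over the 4 stages. Without 10SS replicate 3, which is in neither group, the SE of this difference was 0.23 in place of 0.61 (adjusted p = 0.987 from limma). The moderated F test over the 4 stages gave an adjusted p of 0.204, and none of the 6 stage contrasts was called, whereas 82.9% of all probes differed among the stages. The difference of 10SS from high quality 8CS was -1.26 (95% interval -2.61 to 0.086, adjusted p = 0.0937). It rested on 1 array, since without 10SS replicate 3 it was -0.36 (adjusted p = 0.231), and without 10SS replicate 1 or 2 it was -1.69 (adjusted p = 0.0467) or -1.74 (adjusted p = 0.037). HT differed from high quality 8CS by -0.42 (95% interval -1.77 to 0.93, adjusted p = 0.554). This difference was 1.88 with slide as a fixed block (adjusted p = 0.0219) and 1.94 with spike-in scaling (adjusted p = 0.0257). All 3 HT arrays lay on slide 5, and 10SS replicate 3 was the only array of another group there, so that HT and its slide can be told apart only through the array that stood apart.

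Between qualities ms4a8a was higher in low quality 8CS. The levels there were -0.013, 0.063 and 0.053, a narrower range than in any other group. They did not overlap with high quality 8CS, as was the case for 38.1% of all probes tested. The mean was 2.55-fold higher, a difference of 1.35 (SE 0.17, 95% interval 0.94 to 1.77, adjusted p = 0.0292 from limma). Within slide 1 the difference was 1.41 and within slide 4 it was 1.16. It ranged from 1.26 to 1.46 when arrays were left out, and no longer passed the test without high quality replicate 1 (adjusted p = 0.128) or 2 (0.0752) or low quality replicate 1 (0.159), 2 (0.108) or 3 (0.062). The adjusted p was 0.112 with slide as a fixed block, 0.176 with all 15 arrays in 1 fit and 0.858 with normexp background correction, and over all 21 alternatives it ranged from 0.00502 to 0.858. Normexp after replacement of outlier local backgrounds kept the call (1.21, adjusted p = 0.0149). With spike-in scaling the difference was 2.10.

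In the order of the 5 groups, low quality 8CS had the highest ms4a8a level, high quality 8CS and GR came next, then HT and 10SS. Low quality 8CS stood 3.41-fold above HT (difference 1.77, SE 0.56, adjusted p = 0.0114) and 6.13-fold above 10SS (2.62, adjusted p = 0.00105). Of all probes, 31.9% and 28.5% were called higher in these contrasts. The difference from 10SS was 1.71 (adjusted p = 2.79e-05) when the third 10SS array was left out. With slide as a fixed block the difference from HT was -0.78 (adjusted p = 0.137) and with spike-in scaling it was 0.17 (adjusted p = 0.83). The difference from GR, 1.36 (95% interval 0.15 to 2.56, adjusted p = 0.0516), missed the threshold, and without 10SS replicate 3 it had an adjusted p of 0.000109. It was called with slide as a fixed (1.49, adjusted p = 0.000621) or a random block (1.52, adjusted p = 0.00419). The later neighbours in the order did not differ beyond the spread pooled over the 4 stages. The adjusted p from limma was 0.995 for high quality 8CS and GR, 0.568 for GR and HT and 0.359 for HT and 10SS. The 95% interval was -0.50 to 2.20 for HT minus 10SS. With slide as a fixed or a random block HT minus 10SS was 2.66 (adjusted p = 0.000272) or 2.35 (0.00041), and HT minus GR turned to 2.24 (0.00191) or 1.74 (0.00757). The fixed-block differences of HT rest on 10SS replicate 3, the only array of another group on the HT slide. Without that array and with no slide term, HT minus 10SS was -0.062 (adjusted p = 0.882 from limma). HT then no longer stood above 10SS.

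**Figure D4:**
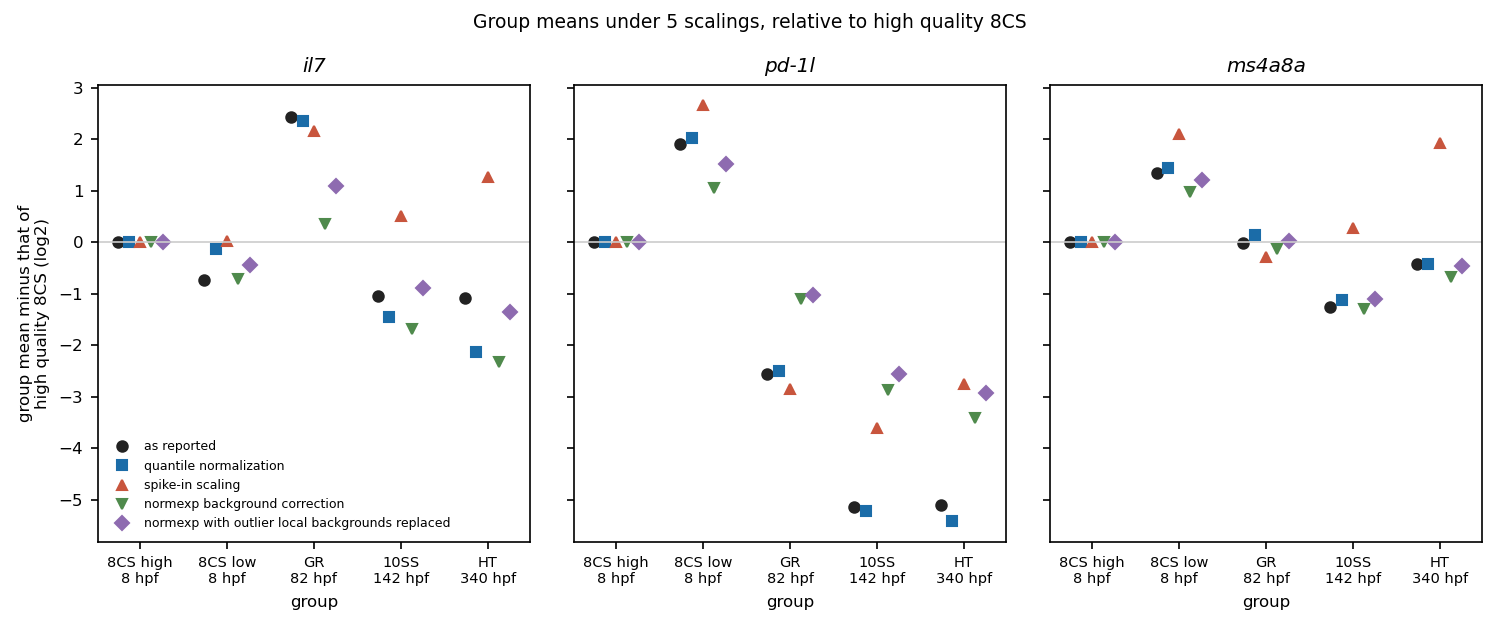
Mean level of each group minus that of high quality 8CS (log2) for il7, pd-1l and ms4a8a under 5 scalings or background corrections, marked by shape and colour. The pd-1l means of GR, 10SS and HT stay below 0 and that of low quality 8CS above 0 under all 5, whereas with spike-in scaling the HT mean is above 0 for il7 (1.27) and ms4a8a (1.94).

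The probes whose levels ran most like those of each transcript over the 15 arrays were found among 9131 probes that were well above background on every array of at least 1 group. The arrays share stages, slides and the scaling, so these correlations describe likeness only. For pd-1l the closest were HH_Contig2817, named as a kelch repeat-containing protein (r = 0.987), HH_Contig2275 (r = 0.982) and HH_90988204 (r = 0.981), and the next named ones were an ecto-ADP-ribosyltransferase precursor (HH_90602849, r = 0.980) and dna-damage-inducible transcript 4-like (HH_Contig3006, r = 0.974). For il7 they were HH_Contig1171 (r = 0.951), HH_90599953 (r = 0.946) and HH_90602066 (r = 0.945), with the splicing factor splicing arginine serine-rich 6 (HH_90597872, r = 0.938), suppressor of ty 6 (HH_90600324, r = 0.933) and tissue factor pathway inhibitor 2 (HH_90607145, r = 0.920) as the closest named ones. For ms4a8a they were HH_90597083 (r = 0.912), HH_Contig1112 (r = 0.908) and HH_90600367 (r = 0.902). Among the 183 named probes compared, the one most like ms4a8a was pd-1l (HH_Contig2081, r = 0.770), followed by mhc2a (HH_38317730, r = 0.719) and a transducing G protein alpha subunit (HH_90606690, r = 0.691). Among all 9131 probes these were only at rank 85, 177 and 262. The names come from tables drawn from the same arrays, so which names appear here is not independent of the levels. The il7 probe ran with neither of the other two (r = 0.113 with pd-1l and -0.031 with ms4a8a).

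A list of 13 further probes with names from antigen presentation, lymphocyte signalling, the MS4A family or the interferon pathway was set beside the 3 transcripts. The names come from the same tables, so the counts are descriptions. Of the 12 tested among the stages, 2 were called higher and 3 lower at GR than in high quality 8CS, near the 21.6% and 20.7% of all probes, with a median difference of 0.75 against 0.14 over all probes. The 2 higher at GR were ifi56 (HH_90607644), an interferon-induced protein, 34.3-fold (difference 5.10, adjusted p = 9.53e-06), and plcg1 (HH_90607316), a phospholipase downstream of the T cell receptor, 9.17-fold (3.20, adjusted p = 0.00225). The 3 lower were the interferon regulatory factor irf7 (HH_90607192, -1.60), the kinase tbk1 (HH_Contig2917, at least 7.02-fold) and swap70 (HH_90607782, -1.87), which acts in B cell signalling in mammals. From GR to HT 3 were called higher and 6 lower, where 26.6% and 31.4% of all probes were.

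Among the probes named after lymphocyte signalling genes, plcg1 was highest at GR (mean level -0.074 against -3.58 to -3.08 in the other groups), as il7 was. The mean of swap70 fell from -1.77 in high quality 8CS to -3.63 at GR and -5.55 at 10SS, where the arrays overlapped with those of GR. At HT it was -5.96, which was not called different from 10SS (-0.40, adjusted p = 0.643 from limma). The GTPase gimap7 (HH_Contig664) and the adaptor pstpip1 (HH_Contig1005) were well above background on none of the 9 8CS and GR arrays and on all 3 HT arrays, at levels of -3.86 ± 0.61 and -4.39 ± 0.18 (SD, n = 3). The phosphatase ptpn22 (HH_90607262), which restrains T cell receptor signalling, was likewise well above background on no 8CS or GR array, on 2 of the 3 10SS arrays and on all 3 HT arrays. The family relative ms4a4a (HH_90607472) was called higher at HT than in high quality 8CS (at least 3.23-fold, adjusted p = 0.00063), where 31.8% of all probes were, and ms4a8a was not. No probe for CD3, a T cell receptor or an immunoglobulin was analysed here.

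**Figure D5:**
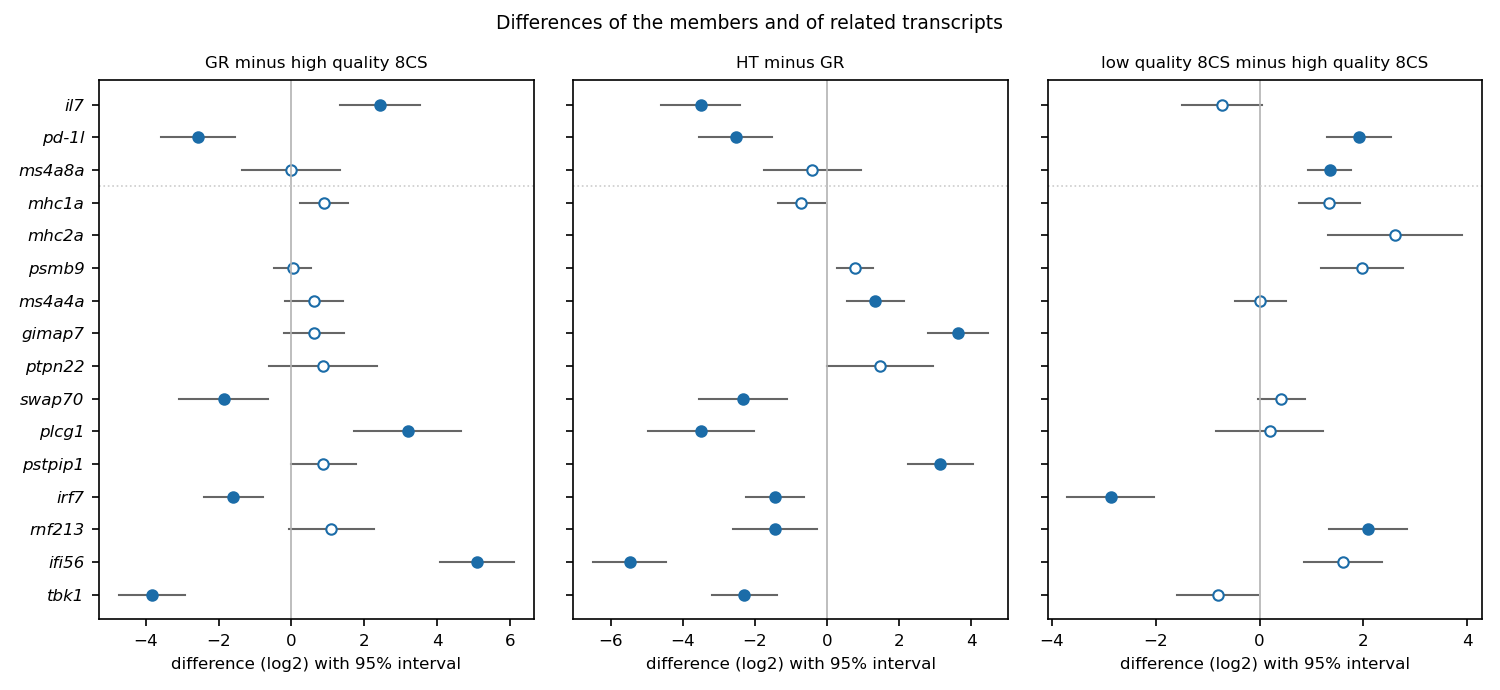
Differences (log2, with 95% intervals) of the 3 transcripts, above the dotted line, and of 13 related transcripts, below it, for GR against high quality 8CS, HT against GR and low against high quality 8CS. Points are filled where called, and a transcript with no point did not reach the signal filter. Between qualities rnf213 (2.08) was called higher and irf7 (-2.87) lower, while mhc1a (1.34), mhc2a (2.61), psmb9 (1.97) and ifi56 (1.60) were above 0 and not called.

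Between qualities 10 of the 13 related probes were tested, 1 was called higher and 1 lower (0.16% and 1.01% of all probes were), with a median difference of 0.88 against -0.059 over all probes, and 7 of the 10 did not overlap between the groups, as 38.1% of all probes did not. In low quality embryos the level of the ubiquitin ligase rnf213 (HH_90598492) exceeded that of high quality ones at least 4.23-fold (adjusted p = 0.0405), and irf7 was 7.29-fold lower (adjusted p = 0.0275). The antigen presentation genes were not called. Class I mhc1a (HH_Contig2306) differed by 1.34 (95% interval 0.76 to 1.93, adjusted p = 0.0624) and the immunoproteasome subunit psmb9 (HH_Contig1979) by 1.97 (1.17 to 2.76, adjusted p = 0.0535). Class II mhc2a was well above background on no high quality 8CS array, and its low quality mean was at least 2.52-fold above (adjusted p = 0.0744). For ms4a4a the difference was 0.017 (95% interval -0.48 to 0.51, adjusted p = 0.962), and for swap70 it was 0.42 (adjusted p = 0.182). The maternal marker h1m differed by 0.28 (95% interval -0.18 to 0.73, adjusted p = 0.342).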

How the data were processed

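Gene expression in Atlantic halibut embryos was measured with 15 Agilent arrays of 1 colour, which were grouped from their labels. The values that the authors deposited for each array are spot intensities from Feature Extraction, corrected for background and without normalization across arrays. The labels name version 7.2 of this software and the files version 10.7.1.1. Log2 values that the authors deposited for 9017 probes, relative to the 75th percentile and centred on each probe's median, served as an alternative. The members and the list of 13 related probes were chosen with earlier results of these data known. Named are the members, this list, and for each member the 3 most similar probes and the 3 most similar ones with a name. Control spots and outlier spots were left out, and levels are means over the copies of a probe. A probe had to reach the array's 20th percentile on 1 array or more of the comparison, which left 9283 for the 4 stages (12 arrays), 8737 for the qualities (6 arrays) and 9353 for all 15 arrays. Differences were tested in limma 3.58.1 (R 4.3.3) and p-values adjusted over all of these probes by the Benjamini-Hochberg method. The fits were checked on simulated data of independent normal values, which held no slide effect, background floor or outlying array. With 3 arrays per group the estimates have limited precision. Each fit pools the spread between arrays of the same group over all of its groups. The p-values and intervals rest on this pooled spread, so an array of neither group compared can change them. Alternatives were normexp background correction (offset 50, with and without replacement of outlier local backgrounds), scaling to 8 of the 10 spike-in RNAs, quantile normalization, other filters, the median over spots, outlier spots kept, slide or replicate number as a block, a variance prior that follows the level, no fold limit, all 15 arrays in 1 fit, the deposited table and leaving out each array. Genome positions are not given, since none of the 3 names was found in the gene table used.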

Additional observations from a re-analysis of the deposited data

How the results depend on the processing

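The excess of high quality 8CS over the next highest stage for pd-1l (2.57) kept its direction and its call under 26 of 27 alternatives and lost the call with normexp (1.09, adjusted p = 0.178). That of GR for il7 (2.43) kept both under 25 and lost the call with normexp (0.36) and spike-in scaling (0.88). Leaving out arrays gave 2.41 to 2.81 and 2.12 to 2.66. Between qualities normexp gave 1.07 for pd-1l and 0.98 for ms4a8a with 0 probes called by limma (311 at an unadjusted p under 0.05), and slide as a fixed block 1.82 and 1.303 (23 probes). Normexp after replacement of outlier local backgrounds gave 1.51 and 1.21, both called, with 83 probes called. Without single arrays the pd-1l difference was 1.67 to 2.07, that of ms4a8a 1.26 to 1.46, that of il7 -1.04 to -0.50 and the count of 102 probes 11 to 708. With the replicate block the differences stayed 1.91 and 1.35, the adjusted p was 0.068 and 0.097 and 17 probes were called. Replicate numbers paired arrays poorly, as 9 of 30 same-numbered pairs had deviations that correlated over 0.1, all 3 pairs only for high quality 8CS with 10SS, and 0 of the 6 8CS arrays correlated best with its own number in the other quality. No call of a member in the other contrasts changed with the replicate block. In 1 fit of 15 arrays ms4a8a stayed at 1.35 (adjusted p = 0.176) and 344 probes were called, against 174 with the stricter filter, 158 with a variance prior that follows the level and 2310 with spike-in scaling. The il7 quality difference turned to 0.022 with spike-in scaling and to 0.084 in the deposited table. Spike-in scaling also turned the il7 differences from high quality 8CS at 10SS (0.50) and HT (1.27), HT minus 10SS (0.77) and low quality 8CS minus 10SS (-0.48) and HT (-1.25), pd-1l HT minus GR (0.094), and for ms4a8a 10SS (0.28) and HT (1.94) against high quality 8CS and HT against GR (2.22). The share of calls that were higher moved with it from 47.5% to 87.7% for 10SS and from 49.8% to 94.2% for HT against high quality 8CS, from 42.9% to 97.6% for 10SS and from 45.9% to 97.9% for HT against GR and from 61.6% to 96.8% for HT against 10SS (42% with quantile normalization), and for low quality 8CS from 43.7% to 77.6% against GR (56.6%), from 48.1% to 26.8% against 10SS (58.1%) and from 49.3% to 13.5% against HT (60.3%). Slide as a fixed or random block turned ms4a8a at HT against high quality 8CS to 1.88 and 1.32, HT against GR to 2.24 and 1.74 and, fixed, low quality 8CS against HT to -0.78. The ms4a8a difference of GR from high quality 8CS, near 0, was 0.16 in the deposited table, 0.14 with quantile normalization, 0.023 with the second normexp, 0.011 with outlier spots, 0.0089 with the median over spots and -0.10 to 0.10 without single arrays. HT minus 10SS without single arrays was -0.65 to 0.50 for il7 and -0.062 to 1.33 for ms4a8a, low quality 8CS minus 10SS for il7 -0.30 to 0.86, and 10SS minus high quality 8CS for ms4a8a -1.74 to -0.36. The calls of 10SS against GR (3917) became 1729 with normexp and 6285 with spike-in scaling, those of HT against 10SS (1346) 177, 2775 and, with slide as a fixed or random block, 4476 and 4103, and those of GR against high quality 8CS (3922) 1677 with normexp, which also gave 2041 for low quality 8CS against GR (4551) and 3289 against 10SS (5542). The causes were not tested. Signals of il7 outside GR and of pd-1l after 8CS lay near background, which limits these differences.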
